A study of Rattus norvegicus with 23 samples.

Results

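The first day after splitting was examined in rat PC12 cells that stably expressed α1ACT, by comparing 3 libraries taken at 24 h with 3 libraries taken at 6 h. These 6 libraries are the members, out of 23 in the series, and they were defined by line and sampling time. Earlier results of these data were known when they were chosen. PC12 is a cell line from a rat adrenal pheochromocytoma that is used as a neuroendocrine and neuron-like model. The α1ACT line had been transfected with pcDNA3 carrying α1ACT, a transcription factor translated from the calcium channel gene CACNA1A, with 11 glutamine repeats and a 3xFlag tag at its C-terminus. A second line, used here as a side comparison, carried empty pcDNA3 and was sampled at 24 h (3 libraries) and at 6 h (2 libraries). Both lines were selected with G418, and cells of each line were also sampled at 3 d and 10 d after splitting. The lines are stable clones. The sources used here do not give the number of clones, so each line stands as a single model. Whether the replicates were separate cultures is not stated, and p-values therefore cover the spread between these libraries alone, which may be technical.

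MicroRNAs (miRNAs) are short RNAs cut from hairpin precursors, first in the nucleus by the Microprocessor complex of Drosha and Dgcr8 and then in the cytoplasm by Dicer. Each hairpin can give a 5p and a 3p product, of which usually 1 is loaded into an Argonaute protein and kept while the other is degraded. The loaded miRNA pairs with target mRNAs mainly through its seed, bases 2 to 8, so miRNAs with 1 seed form a family. Splitting detaches and dilutes cells, and a culture then goes through attachment and renewed growth.

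The mature sequences of 12 miRNAs that passed the test, shown because the results turn on them, are given 5′ to 3′ with the seed in capitals, as listed in RefSeq for assembly GRCr8. The first 2 share 1 seed and the next 2 share another, and these 4 were all lower at 24 h. The following 5 were also lower at 24 h, and the last 3, from 1 hairpin cluster on chromosome X, were higher.
miR-99b-5p: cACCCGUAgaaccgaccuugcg
miR-100-5p: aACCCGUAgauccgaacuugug
miR-125a-5p: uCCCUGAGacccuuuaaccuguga
miR-125b-5p: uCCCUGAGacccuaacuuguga
miR-423-5p: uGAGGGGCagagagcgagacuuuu
miR-671: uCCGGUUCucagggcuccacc
miR-149-5p: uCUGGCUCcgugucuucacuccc
miR-342-3p: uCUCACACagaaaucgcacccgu
miR-877: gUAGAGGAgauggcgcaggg
miR-322-5p: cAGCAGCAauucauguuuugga
miR-450a-5p: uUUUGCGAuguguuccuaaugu
miR-542-3p: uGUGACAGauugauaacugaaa

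In GRCr8, miR-99b-5p lies at chr1:67350070-67350091 and miR-125a-5p at chr1:67350689-67350712, both on the plus strand and within the bounds of the gene Spaca6, next to the let-7e hairpin. miR-100-5p lies at chr8:50798307-50798328. The mature miR-125b-5p is in 2 hairpins, Mir125b1 at chr8:50850050-50850071 and Mir125b2 at chr11:29732588-29732609, and its counts cannot be divided between them. All 3 positions are on the plus strand. Host genes are given here without regard to strand. miR-423-5p (chr10:62412317-62412340, minus strand) falls within Nsrp1 and miR-671 (chr4:11473205-11473225, minus strand) within Chpf2. miR-149-5p (chr9:100861814-100861836), miR-342-3p (chr6:133329715-133329737) and miR-877 (chr20:2816284-2816303), on the plus strand, fall within Gpc1, Evl and Abcf1, in that order. The hairpins of miR-322, miR-450a and miR-542 lie within 10 kb of each other, with miR-450a-5p at chrX:137720985-137721006, miR-542-3p at chrX:137722185-137722206 and miR-322-5p at chrX:137726198-137726219, all on the minus strand.

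Total counts per library ran between 1850263 and 3028200 in these 6 libraries, and between 448557 and 5070120 over the series. Of 413 miRNA entries in the deposited count table, 269 had enough counts to be tested. Levels are given as CPM, the count of a miRNA scaled to a common library total, with factors from the trimmed mean of M values. The 10 most abundant miRNAs took 68.7% to 72.1% of each library. Among the 6 h libraries, replicate 2 stood apart. The chi-square of its counts per degree of freedom was 103 against replicate 1 and 92.4 against replicate 3, while replicates 1 and 3 gave 21.3 against each other. The 3 pairs at 24 h gave between 47.0 and 66.8. In the vector line, the column of 6 h replicate 2 matched 10 d replicate 2 of the second count table and the reverse, so it is uncertain which of these columns holds which library.

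Between 24 h and 6 h, 28 of 269 miRNAs (10.4%) passed the edgeR quasi-likelihood test at a Benjamini-Hochberg adjusted p under 0.05. Of these, 21 (7.81% of the tested) were lower at 24 h and 7 (2.6%) were higher. An unadjusted p under 0.05 was reached by 62. The falls were larger than the rises. The median log2 fold change was -0.87 over the 21 lower and 0.41 over the 7 higher, against 0.03 over all 269. All 7 called miRNAs with a log2 fold change of at least 1 in size were lower, and the largest rise was 0.71. In 25 of the 28, no library at 24 h overlapped any at 6 h. The 3 that did overlap were miR-25-5p, miR-877 and miR-674-3p. Over all tested miRNAs the groups did not overlap in 64 (23.8%).

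Leaving out 1 library moved these counts. Without 6 h replicate 2 there were 43 calls (13 higher, 30 lower), and without 6 h replicate 1 or without 24 h replicate 2 there were 18. The rises were the less stable: their count was 4 without 6 h replicate 1, 2 without 6 h replicate 3, 1 without 24 h replicate 2 and 3 without 24 h replicate 3. Calls for 13 of the 21 lower miRNAs held whichever of the 6 libraries was left out, and calls for 0 of the 7 higher ones did. Replicate 2 at 6 h was the lowest of the 3 libraries at 6 h for 19 of the 21 lower miRNAs, and what set this library apart was not tested. Upper-quartile scaling gave 2 higher and 21 lower. The vector libraries enter this comparison through the shared estimate of spread, the scaling and the filter. With the uncertain vector pair exchanged the count was 16 (2 higher), and with both left out it was 29.

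**Figure D1:**
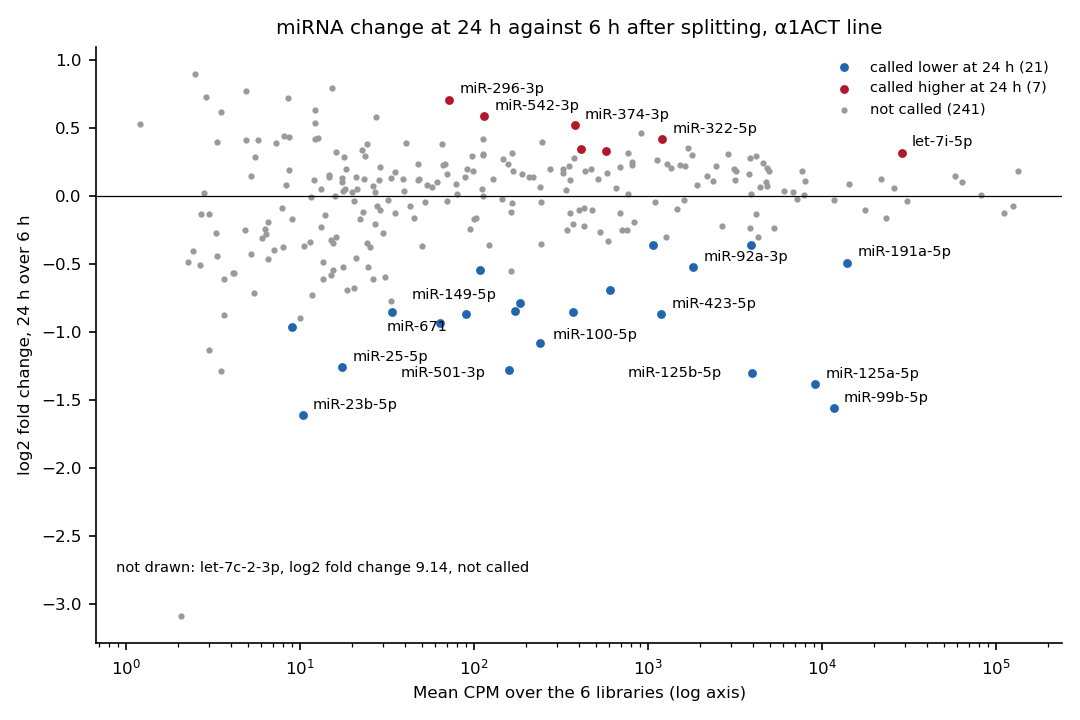
Log2 fold change of 24 h over 6 h in the α1ACT line against the mean CPM over the 6 libraries (log axis), 1 point per tested miRNA. Of the 28 called, the 21 lower ones (blue) reach down to -1.61 and include abundant miRNAs, while the 7 higher ones (red) reach up to 0.71; let-7c-2-3p, not called, lies outside the axis at 9.14.

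The largest falls among called miRNAs above 100 CPM were in 2 seed families, that of miR-99 and miR-100 and that of miR-125, with the fall of miR-501-3p between them. miR-99 and miR-100 are known for targeting mTOR, and miR-125 is the vertebrate counterpart of lin-4, the developmental timing miRNA of Caenorhabditis elegans. miR-99b-5p had 6486, 6552 and 4701 CPM at 24 h, against 20178, 12850 and 19283 CPM at 6 h. All 3 libraries at 24 h were far below every library at 6 h. Its mean fell to 5913 ± 1050 CPM at 24 h, against 17437 ± 3997 CPM at 6 h (SD, n = 3 each), a log2 fold change of -1.56 (SE 0.209; edgeR adjusted p = 7.11e-05). miR-100-5p, which shares its seed and 18 of 22 bases, had 177, 174 and 112 CPM at 24 h, against 349, 263 and 371 CPM at 6 h. The groups again did not overlap, and the log2 fold change was -1.08 (SE 0.213; edgeR adjusted p = 0.00139).

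The pair with the miR-125 seed moved the same way. miR-125a-5p had 5943, 4914 and 4290 CPM at 24 h, against 16906, 7364 and 15344 CPM at 6 h. Replicate 2 at 6 h was the low one of its group and still above all of the 24 h libraries. The log2 fold change was -1.39 (SE 0.208; edgeR adjusted p = 0.000162), and -1.67 without that library. miR-125b-5p had 2463, 2197 and 2215 CPM at 24 h, against 6947, 3316 and 6726 CPM at 6 h, a log2 fold change of -1.30 (SE 0.201; edgeR adjusted p = 0.000162), or -1.58 without 6 h replicate 2. These 2 calls were lost when the 6 libraries were fitted without the others, at adjusted p = 0.112 for miR-125a-5p and 0.0905 for miR-125b-5p. Compared base by base from the 5′ end without gaps, miR-125a-5p and miR-125b-5p are identical at 15 of 22 positions. This count understates their likeness. miR-125a-5p has 24 bases and miR-125b-5p has 22, and more bases match when a gap is allowed. The sources used here do not say how reads matching more than 1 miRNA were counted. miR-99a-5p, which has the seed of miR-99b-5p, was too low to test, and miR-351-5p, which carries the miR-125 seed but comes from the chromosome X cluster, had a log2 fold change of 0.07.

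Of the 8 tested entries of the miR-99, miR-100 and miR-125 list, 4 were lower, beside 7.81% of all tested miRNAs. No entry was higher, the median log2 fold change was -0.67, and the 4 lower entries were 5p arms. With 6 h replicate 2 left out, miR-125b-1-3p joined them, which made 5 lower. The other arms of the same hairpins did not pass the test with all libraries. miR-99b-3p averaged 113 ± 6.24 CPM at 24 h and 113 ± 12.4 CPM at 6 h (SD, n = 3 each), and miR-125a-3p had 72.5, 63.8 and 71.7 CPM at 24 h and 68.7, 73.2 and 72.2 CPM at 6 h. The values of both groups were interleaved for each of these arms.

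**Figure D2:**
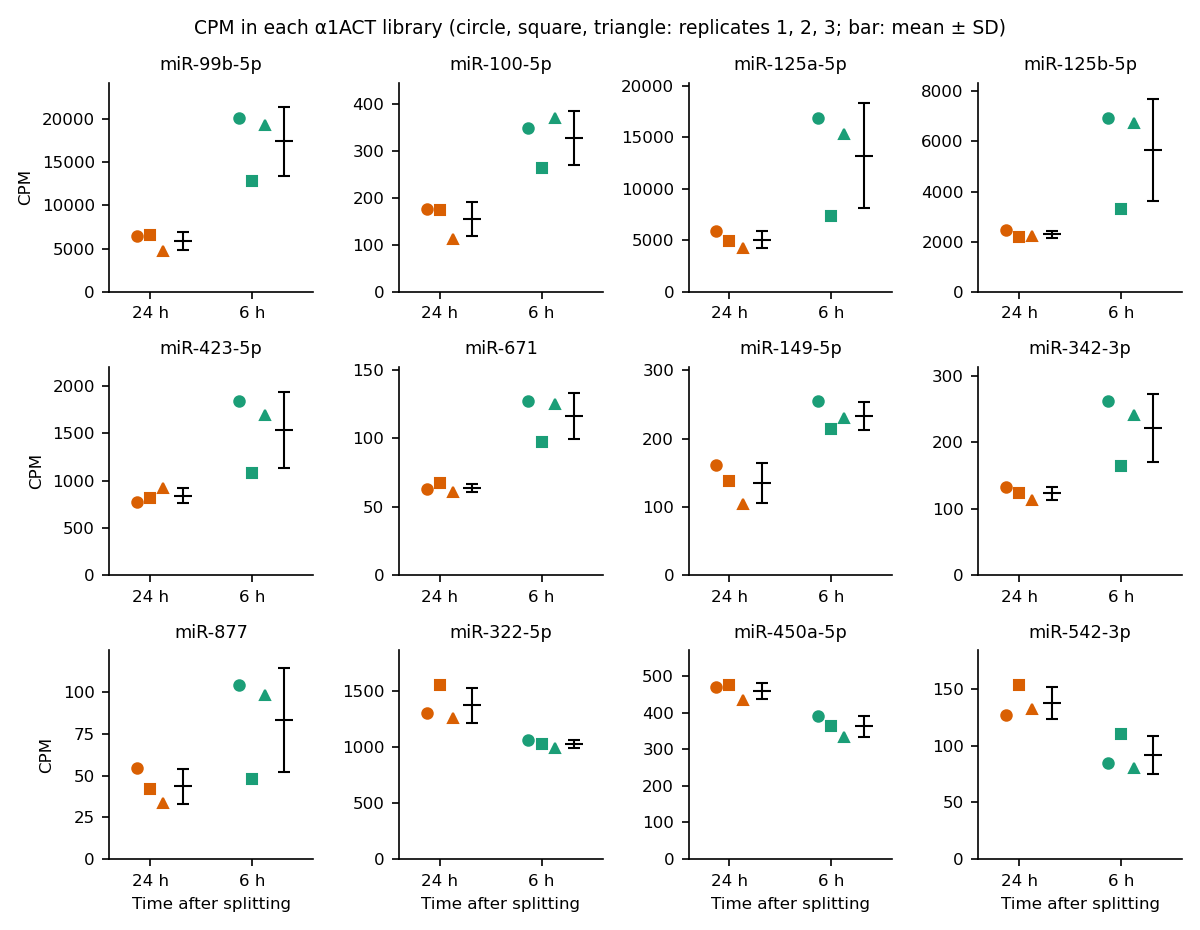
CPM of the 12 miRNAs whose sequences are shown, by library (circle, square and triangle are replicates 1, 2 and 3), with the mean ± SD of each group (n = 3), 24 h on the left and 6 h on the right of each panel. The square at 6 h, replicate 2, is the lowest 6 h point in the 9 panels of miRNAs that were lower at 24 h, and for miR-877 it falls among the 24 h points.

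Falls of a smaller size were found in miR-423-5p, miR-149-5p, miR-342-3p and miR-671. miR-423-5p had 775, 817 and 925 CPM at 24 h, against 1834, 1079 and 1686 CPM at 6 h, with a log2 fold change of -0.87 (SE 0.145; edgeR adjusted p = 0.000162). miR-149-5p had 162, 138 and 104 CPM at 24 h, against 255, 214.3 and 230.4 CPM at 6 h, with a log2 fold change of -0.79 (SE 0.139; edgeR adjusted p = 0.000206). In both, every 24 h library was below every 6 h library. miR-342-3p had 133.2, 124 and 113 CPM at 24 h, against 262, 164 and 241 CPM at 6 h (log2 fold change -0.85, SE 0.175; edgeR adjusted p = 0.00139). miR-671 had 62.9, 67.2 and 60.9 CPM at 24 h, against 127, 97.2 and 125 CPM at 6 h (log2 fold change -0.87, SE 0.152; edgeR adjusted p = 0.000206). The spread of miR-671 within the 24 h group was small beside its distance from the 6 h group. In the second count table, made with Chimira, its log2 fold change was -0.41 with an adjusted p of 0.08.

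Of 3 tested miRNAs that are known to be made without the Microprocessor, 2 were lower at 24 h, beside 7.81% of all tested miRNAs. miR-877, a mirtron whose ends are set by splicing, had 54.6, 42.1 and 33.6 CPM at 24 h, against 104, 47.7 and 98.5 CPM at 6 h (log2 fold change -0.93, SE 0.221; edgeR adjusted p = 0.00461). The groups overlapped through 6 h replicate 2, and without 6 h replicate 1 the adjusted p was 0.0612. miR-320-3p, cut from a capped hairpin, had 222, 222 and 353 CPM at 24 h, against 565, 359 and 513 CPM at 6 h (log2 fold change -0.85, SE 0.173; edgeR adjusted p = 0.00139). The third, miR-484, which is also cut from a capped hairpin, had 156 ± 25.4 CPM at 24 h and 170 ± 9.82 CPM at 6 h (SD, n = 3 each) and did not pass the test (log2 fold change -0.12; edgeR adjusted p = 0.645). The calls of miR-877 and miR-320-3p were lost with the 6 libraries fitted alone, at adjusted p = 0.116 and 0.0624. The list's median log2 fold change was -0.85.

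The other falls were spread over several families. miR-191a-5p, from Dalrd3, was the most abundant of the 21, with 12045, 11246 and 11623 CPM at 24 h, against 18244, 14372 and 16494 CPM at 6 h. Its fall of 0.49 on the log2 scale (SE 0.108, edgeR adjusted p = 0.00243) was smaller than those of the called members of the miR-99, miR-100 and miR-125 list. Without 6 h replicate 1 its adjusted p was 0.0533. miR-92a-3p belongs to the growth-promoting miR-17-92 cluster on chromosome 15 and has a further copy on X. It had 1480, 1559 and 1438 CPM at 24 h, against 2285, 1967 and 2178 CPM at 6 h (log2 fold change -0.52, edgeR adjusted p = 0.0035). miR-501-3p, from the Clcn5 introns, had 107, 118 and 53.8 CPM at 24 h, against 273, 170.4 and 236 CPM at 6 h (log2 fold change -1.28, SE 0.291; edgeR adjusted p = 0.00474). Both kept their groups apart. The call of miR-501-3p was lost in the Chimira table (adjusted p = 0.0727), with the 6 libraries fitted alone (0.0635, or 0.0872 with a replicate block) and with the uncertain vector pair exchanged (0.0939). That of miR-92a-3p was lost in the Chimira table (adjusted p = 0.0988) and with the pair exchanged (0.142). miR-500-3p, which has the same seed as miR-501-3p and differs from it little, averaged 58.5 CPM at 24 h and 55.9 CPM at 6 h. How reads were divided between these near-copies is uncertain.

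Further calls were miR-212-5p (log2 fold change -0.86), let-7d-3p (-0.69), miR-674-3p (-0.55), miR-344b-1-3p (-0.37) and miR-151-3p (-0.36). miR-212-5p comes from a hairpin next to miR-132, a pair known for induction by CREB, and its groups did not overlap: it averaged 24.1 ± 3.53 CPM at 24 h and 43.8 ± 8.18 CPM at 6 h (SD, n = 3 each). Its call was lost with the uncertain vector pair exchanged (edgeR adjusted p = 0.0727). The table holds a further entry, miR-344b-3p, and how reads were divided between it and miR-344b-1-3p is uncertain. The calls of the last 4 depended on single libraries. That of let-7d-3p was lost without replicate 3 of either time. That of miR-674-3p was lost without replicate 1 or 3 of either time. For miR-344b-1-3p the call was lost without replicate 1 of either time, 6 h replicate 3 or 24 h replicate 2, and for miR-151-3p without replicate 1 of either time or 24 h replicate 2.

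Among the falls, 3 rest on low counts. miR-23b-5p, with the lowest log2 fold change of all calls at -1.61 (SE 0.513; edgeR adjusted p = 0.0428), had 18, 12 and 10 counts at 24 h, against 34, 24 and 39 counts at 6 h. Its call held only when 6 h replicate 2 was the library left out. let-7e-3p, which falls outside the naming rule because its mean is under 10 CPM, had 21, 13 and 14 counts at 24 h, against 33, 21 and 22 counts at 6 h, and its call too held in 1 of the 6 fits, that without 6 h replicate 2. miR-25-5p, the minor arm of a hairpin in the Mcm7 introns, had 26, 28 and 25 counts at 24 h, against 71, 24 and 60 counts at 6 h. Its groups overlapped through 6 h replicate 2, and its log2 fold change of -1.26 (SE 0.303; edgeR adjusted p = 0.00474) became -1.60 without that library.

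The rises were smaller and came partly from 1 place. The hairpins of miR-322, miR-503, miR-351, miR-542, miR-450a and miR-450b form a cluster on chromosome X, and miR-322 (the rodent counterpart of human miR-424) and miR-503 are known for holding back the cell cycle by targeting cyclins and Cdc25 phosphatases. miR-322-5p had 1303, 1551 and 1259 CPM at 24 h, against 1067, 1023 and 996 CPM at 6 h (log2 fold change 0.41, SE 0.116; edgeR adjusted p = 0.0171). miR-450a-5p had 469, 474 and 433 CPM at 24 h, against 391, 362 and 334 CPM at 6 h (log2 fold change 0.34, SE 0.106; edgeR adjusted p = 0.0383). miR-542-3p had 127, 153 and 132.6 CPM at 24 h, against 84.7, 110.4 and 79.9 CPM at 6 h (log2 fold change 0.58, SE 0.156; edgeR adjusted p = 0.0123). In these 3 miRNAs every 24 h library was above every 6 h library.

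Of the 9 tested arms of the cluster, 3 were higher and 0 lower, beside 2.6% higher and 7.81% lower of all tested miRNAs. The median log2 fold change of the 9 arms was 0.20. Without 6 h replicate 2 the count was 3 higher and 1 lower, and the lower one was miR-503-3p, with 23.6, 24.7 and 25.5 CPM at 24 h and 52.3, 24.5 and 49.8 CPM at 6 h. miR-351-5p had a log2 fold change of 0.07. The calls of the 3 higher arms depended on single libraries. Each was lost without 6 h replicate 3 and without 24 h replicate 2. In addition, that of miR-450a-5p was lost without 24 h replicate 1 or 24 h replicate 3, and that of miR-542-3p without 6 h replicate 1.

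The other 4 rises came from separate hairpins. miR-296-3p had 76.7, 88.5 and 102 CPM at 24 h, against 55.2, 55.7 and 52.5 CPM at 6 h, the largest rise among the calls (log2 fold change 0.71, SE 0.165; edgeR adjusted p = 0.0044). Without 24 h replicate 3 its adjusted p was 0.0567. miR-374-3p, from the Ftx and Jpx region of the X-inactivation centre, averaged 445 ± 49.7 CPM at 24 h and 311 ± 41.3 CPM at 6 h (SD, n = 3 each; log2 fold change 0.52; edgeR adjusted p = 0.0253). let-7i-5p, the most abundant called miRNA, averaged 31840 ± 2183 CPM at 24 h and 25546 ± 1927 CPM at 6 h (SD, n = 3 each; log2 fold change 0.32; edgeR adjusted p = 0.0428). miR-106b-5p, from the same Mcm7 introns as miR-25, averaged 635 ± 42.8 CPM at 24 h and 505 ± 49.7 CPM at 6 h (SD, n = 3 each; log2 fold change 0.33; edgeR adjusted p = 0.048). The groups did not overlap in any of the 4. Single libraries decided the last 3 calls. miR-374-3p was lost without 6 h replicate 3, 24 h replicate 1 or 24 h replicate 2. let-7i-5p was lost without 6 h replicates 1 or 2 or 24 h replicates 2 or 3, and miR-106b-5p without 6 h replicates 1 or 3 or 24 h replicates 2 or 3. Next below the threshold, and no call, was miR-15b-3p, with 18.4, 21.3 and 18.8 CPM at 24 h and 12.6, 13.2 and 7.66 CPM at 6 h (log2 fold change 0.79; edgeR adjusted p = 0.0532).

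The most abundant miRNAs of these cells mostly did not pass the test. Of the 10 with the highest mean, only let-7i-5p did. miR-27b-3p held 13.9% of the counts and had a log2 fold change of 0.18 (edgeR adjusted p = 0.275). miR-375-3p, which is enriched in endocrine cells, held 12.8% and had a log2 fold change of -0.07. It averaged 121923 ± 8540 CPM at 24 h and 128364 ± 6103 CPM at 6 h (SD, n = 3 each). miR-10b-5p (-0.12), let-7f-5p (0.01), miR-22-3p (0.10) and miR-30a-5p (0.15) were all within 0.2 of no change on the log2 scale.

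By family, many lists held no call at all. Over all 269 tested miRNAs 2.6% were higher and 7.81% lower, and the counts of this paragraph stand beside these shares. In lists of this size they are descriptions. None was called among the tested members of miR-10 (4), miR-15 and miR-16 (7), miR-29 (6), miR-30 (9), miR-181 (5), miR-26 (3), miR-22 (2), miR-708 (2) or miR-130, miR-148, miR-152 and miR-301 (10), whose median log2 fold changes ran between -0.08 and 0.20. When 6 h replicate 2 was left out, miR-15b-3p, miR-30e-5p and miR-301a-3p were higher. In the let-7 family 1 of 9 5p arms was higher (let-7i-5p) and 2 of 10 3p arms were lower (let-7d-3p and let-7e-3p). In the miR-17-92 cluster and its paralogs 1 of 17 arms was higher (miR-106b-5p) and 2 were lower (miR-25-5p and miR-92a-3p), with a median of 0.08. Among the Clcn5 intron miRNAs 1 of 7 was lower, with miR-188-5p higher when 6 h replicate 2 was left out. In the list of miR-191 and miR-425, 1 of 4 was lower, and in that of miR-23, miR-27 and miR-24, 1 of 10. A list of GC-rich miRNAs that an earlier account of these same data had described as falling with time had 3 of 6 lower, which is no independent count.

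Lists tied to cell state gave few calls, to be read beside 2.6% higher and 7.81% lower of all tested miRNAs. miR-210, the miRNA induced by hypoxia, had 2 tested arms and 0 calls, with log2 fold changes of 0.27 for miR-210-3p and 0.42 for miR-210-5p. The 5 tested miRNAs of the p53-induced list had 0 calls. Their values were all positive but small, between 0.06 and 0.24, with a median of 0.14 beside 0.03 over all 269 tested miRNAs. Positive was also the more common sign over all tested miRNAs. Within the list, miR-192-5p and miR-194-5p have neighbouring hairpins, so these values are a description. Of 6 growth-factor and immediate-early miRNAs 1 was lower, miR-212-5p, with a list median of -0.20. Of 22 neuronal miRNAs 1 was lower, miR-344b-1-3p, and the median was -0.02. miR-218a-5p of this list was higher when 6 h replicate 2 was left out. The endocrine list (4 tested) and the list of miR-182, miR-183 and miR-96 (4 tested) had 0 calls.

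Markers of other cell types were low or did not pass the test. The 4 tested epithelial miRNAs summed to between 367 and 433 CPM at 24 h and between 339 and 401 CPM at 6 h, and miR-200c-3p had 0 counts in all 6 libraries. The 4 mesenchymal and endothelial miRNAs summed to between 642 and 888 CPM at 24 h and between 551 and 784 CPM at 6 h. The 4 glial ones summed to between 488 and 578 CPM at 24 h and between 444 and 509 CPM at 6 h. Most of each sum came from 1 miRNA, in the order of these lists miR-203a-3p, miR-143-3p and miR-338-3p. Of the blood cell list only miR-142-5p could be tested, with 0.851 to 2.46 CPM at 24 h and 2.19 to 5.48 CPM at 6 h, and miR-223-3p had 0 counts. Of the muscle list only miR-499-5p could be tested, and miR-133a-3p had 0 counts. The liver list had no entry in the table and none of 6 entries of the Dlk1-Dio3 list could be tested. These are bulk libraries, in which fewer cells of a type and less RNA per cell cannot be told apart.

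Calls by seed family stand beside 2.6% higher and 7.81% lower of all tested miRNAs. In families of this size 1 call is a description and no result about the family. Both tested miRNAs with the seed ACCCGUA were lower (miR-99b-5p and miR-100-5p). Of the 3 with CCCUGAG, 2 were lower. Of the 6 seed families with at least 4 tested members, 4 had 1 call and 2 had none: 1 of 5 with AGCAGCA was higher (miR-322-5p), 1 of 4 with AAAGUGC was higher (miR-106b-5p), 1 of 9 with GAGGUAG was higher (let-7i-5p), 1 of 4 with AUUGCAC was lower (miR-92a-3p), and 0 of 5 with UAUACAA and 0 of 4 with ACAUUCA were called. In the AAAGUGC family, which includes miR-17-5p, all 4 log2 fold changes were positive, between 0.10 and 0.33. The positive sign was also the more common one over all tested miRNAs. miR-99b-5p and miR-125a-5p share no seed but lie in 1 cluster with let-7e-5p, which had 13210, 14395 and 16526 CPM at 24 h and 14164, 12060 and 15358 CPM at 6 h. The let-7e-5p values of the groups were interleaved (log2 fold change 0.09).

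Both arms were tested for 76 hairpins, in 35 of which (46.1%) the arms had the same sign. Of their 152 arms 18 (11.8%) were called, beside 10.4% of all tested miRNAs. In 18 hairpins 1 arm was called and in 0 both were. The uncalled arm of those 18 had a median log2 fold change of -0.04, and it was under 0.1 in size in 10. Besides miR-99b and miR-125a, the uncalled arm was near 0 for miR-25-3p (0.03), miR-212-3p (-0.04), miR-191a-3p (-0.03) and let-7d-5p (0.01). miR-423-3p (-0.30; edgeR adjusted p = 0.0808) and miR-151-5p (-0.30) had the sign of the called arm, and both passed the test without 6 h replicate 2.

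The ratio of the arms within a library needs no scaling between libraries. miR-99b-5p had 61.2, 57.6 and 39.7 counts per count of miR-99b-3p at 24 h, against 198, 102 and 175 at 6 h. For miR-125a the ratio was 81.9, 76.7 and 59.7 at 24 h, against 245, 100.3 and 212 at 6 h. For miR-106b, whose 5p arm rose, the ratio of 5p to 3p was 1.62, 1.58 and 1.59 at 24 h, against 1.04, 1.09 and 1.14 at 6 h. In 14 of the 18 hairpins (77.8%) the ratios of the groups did not overlap. This held for 31% of the 58 hairpins with no called arm, and for 32 of all 76 (42.1%). Since the 18 hairpins were chosen by a call in 1 of the arms, their 14 non-overlapping ratios are a description. Each of these gave p = 0.1 in a two-sided exact permutation test, the smallest that 3 against 3 libraries allow, or 0.129 after Benjamini-Hochberg adjustment over the 18 hairpins, so none could pass the threshold. The 4 with overlapping ratios were let-7i, miR-25, miR-151 and miR-423.

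**Figure D3:**
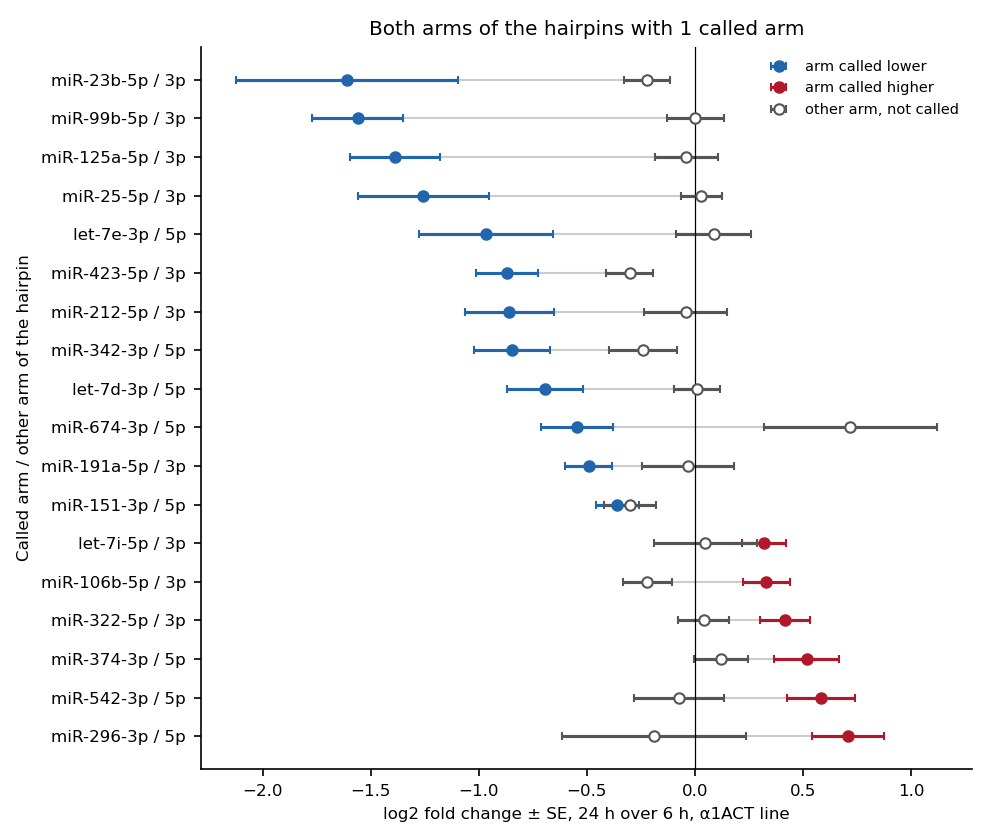
Log2 fold change ± SE of 24 h over 6 h for both arms of the 18 hairpins with 1 called arm (filled points: called arm, blue lower and red higher; open points: other arm, not called). The called arm lies farther from 0 than the other arm in all but miR-674, where the uncalled 5p arm is at 0.72 with a wide error; 10 of the open points are within 0.1 of 0.

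The called miRNAs differed in base composition. A mature sequence was matched for 248 of the 269 tested miRNAs (92.2%) and for 25 of the 28 called. The median GC content was 40.9% in the 7 higher, 53.3% in the 18 lower with a sequence and 47.6% in those not called. Of 51 miRNAs with at most 40% GC, 0 were lower and 3 were higher. Of 111 between 40% and 50%, 6 were lower and 3 higher. Of 51 between 50% and 60%, 7 were lower and 0 higher, and of 35 above 60%, 5 were lower and 1 (miR-296-3p) was higher. Lower calls thus made up 0%, 5.41%, 13.7% and 14.3% of the classes, beside 7.81% of all tested miRNAs. Higher calls made up 5.88%, 2.7%, 0% and 2.86%, beside 2.6% of all tested miRNAs. Without 6 h replicate 2 the lower counts in these classes were 0, 9, 11 and 5, and the higher counts 7, 3, 0 and 2.

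The median log2 fold change in the 4 GC classes was 0.19, 0.03, -0.07 and -0.12, in the order of rising GC content. Over miRNAs that were not called it was 0.18, 0.04, -0.04 and 0.00. In the vector line the class medians were 0.11, 0.02, -0.07 and 0.01. Across the 248 miRNAs, which share libraries and depth and are no independent replicates, Spearman's correlation of GC content with the log2 fold change was -0.28 in the α1ACT line and -0.18 in the vector line. The part of base composition in the result was not tested.

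The first-day difference was set beside later times. All 21 lower miRNAs were still below their 6 h mean at 10 d, and all 7 higher ones were above it, as descriptions of means that share the 6 h libraries. At 3 d this held for 16 of the 21 and 4 of the 7. In the order 6 h, 24 h, 3 d, 10 d, miR-100-5p averaged 327 ± 56.9, 154 ± 36.6, 62.4 ± 13.8 and 97.4 ± 8.36 CPM (SD, n = 3 each). miR-501-3p, in that order, averaged 227 ± 52.0, 92.9 ± 34.4, 36.6 ± 16.2 and 38.6 ± 5.24 CPM. In both the level at 3 d was below that at 24 h.

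In another set the mean at 3 d was above that at 6 h. In the same order of times, miR-671 averaged 116 ± 16.7, 63.7 ± 3.22, 129 ± 11.3 and 75.5 ± 13.5 CPM, and miR-92a-3p averaged 2143 ± 162, 1492 ± 61.3, 2371 ± 150.0 and 1074 ± 61.5 CPM. miR-320-3p, miR-344b-1-3p and miR-151-3p likewise had means at 3 d above those at 6 h. Of the higher miRNAs, miR-322-5p, miR-374-3p and miR-450a-5p had means at 3 d below those at 6 h. miR-322-5p averaged 1029 ± 36.0, 1371 ± 158, 946 ± 82.2 and 1363 ± 94.3 CPM at the 4 times.

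**Figure D4:**
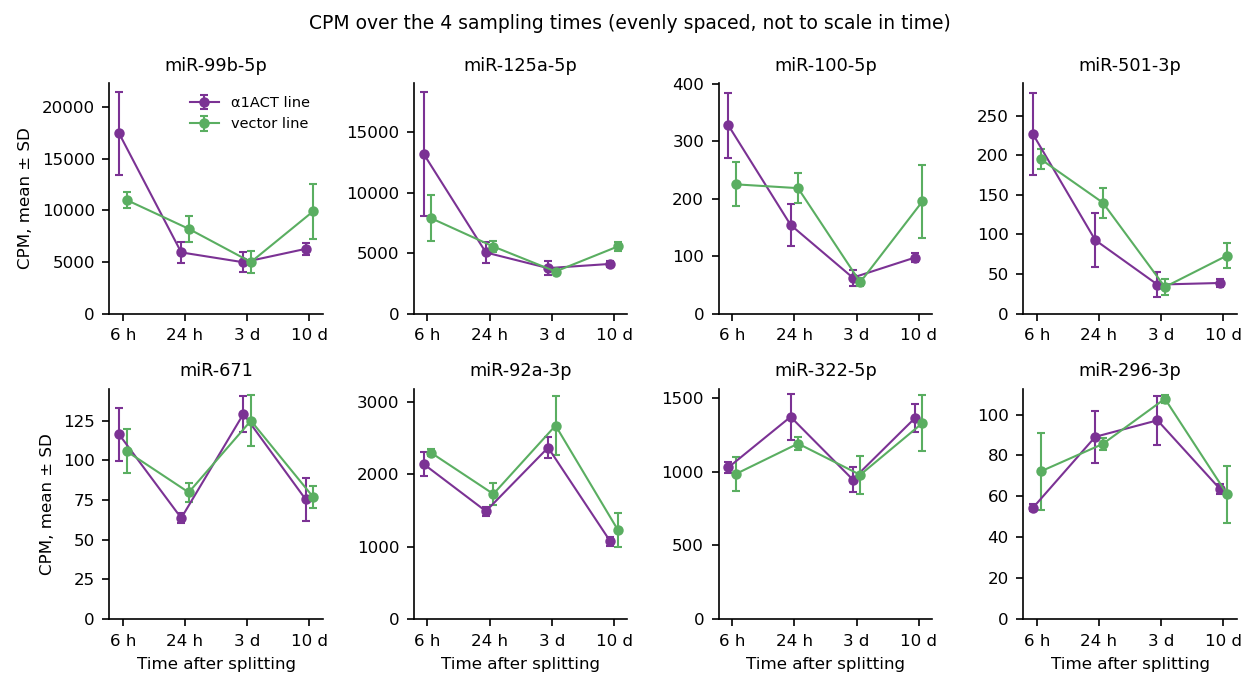
Mean CPM ± SD of 8 of the called miRNAs over the 4 times after splitting in the α1ACT line (purple, n = 3) and the vector line (green, n = 3, at 6 h n = 2); times are evenly spaced. miR-99b-5p, miR-125a-5p, miR-100-5p and miR-501-3p stay below their 6 h level in the α1ACT line, while miR-671, miR-92a-3p and miR-322-5p are near it at 3 d. The vector means at 6 h and at 10 d each include a column of the uncertain vector pair.

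The vector line gives the same interval without the α1ACT construct. There 3 of 269 miRNAs (1.12%) were called, with 33 at an unadjusted p under 0.05: miR-210-5p was higher at 24 h (log2 fold change 1.15), and miR-27b-5p (-0.52) and miR-674-3p (-0.80) were lower. miR-674-3p was the only miRNA called in both lines. With the uncertain pair of vector columns exchanged, or with both left out, 0 miRNAs were called.

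The lines share no library, and most values had the same sign in both. This held for 26 of the 28 miRNAs called in the α1ACT line and for 204 of all 269 (75.8%). The median log2 fold change in the vector line was -0.41 over the 21 lower and 0.16 over the 7 higher, and 26 of the 28 values were larger in size in the α1ACT line, the line that chose them. miR-99b-5p had -1.56 in the α1ACT line and -0.42 in the vector line, where its CPM was 7210, 7754 and 9627 at 24 h and 11551 and 10433 at 6 h. miR-100-5p had -1.08 and -0.05, and miR-423-5p -0.87 and -0.52. The 6 h level of miR-99b-5p in the vector line lay below all 3 of the α1ACT libraries at 6 h. That level rests on 2 libraries, of which replicate 2 belongs to the uncertain vector pair. All vector changes given here also draw on that column.

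The difference of the first-day changes between the lines was tested as an interaction. By edgeR, 0 of 269 miRNAs (0%) were called, 8 had an unadjusted p under 0.05, and limma-voom called 0. The smallest p belonged to miR-99b-5p, with a difference of -1.14 on the log2 scale (SE 0.310; edgeR adjusted p = 0.393), followed by miR-100-5p (-1.04; 0.479), miR-125a-5p (-0.88; 0.869) and miR-125b-5p (-0.80; 0.948). DESeq2 called 2, miR-99b-5p (adjusted p = 0.0142) and let-7c-2-3p, an entry counted in 1 of the 6 libraries. Without α1ACT 6 h replicate 2, edgeR called 3: miR-125a-5p (-1.17; adjusted p = 0.00104), miR-125b-5p (-1.07; adjusted p = 0.00244) and miR-99b-5p (-1.31; adjusted p = 0.0312). These 3 calls were made only with that library left out, apart from miR-99b-5p by DESeq2.

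**Figure D5:**
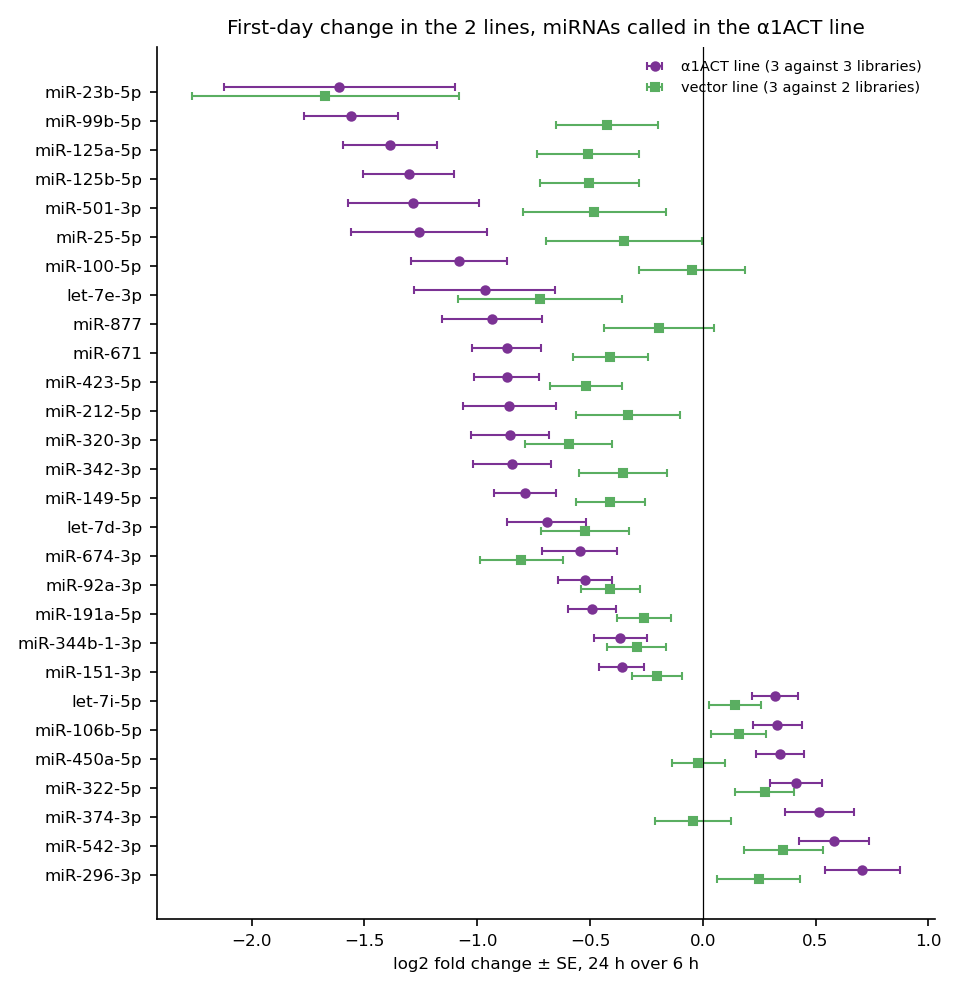
Log2 fold change ± SE of 24 h over 6 h for the 28 miRNAs called in the α1ACT line, in that line (purple circles, 3 against 3 libraries) and in the vector line (green squares, 3 against 2). The signs match in 26 of 28, and the gaps between the lines are widest for miR-99b-5p (-1.56 and -0.42) and miR-100-5p (-1.08 and -0.05). The vector libraries at 6 h include a column of the uncertain vector pair.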

How the data were processed

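Small RNA libraries of PC12 lines were made from a miRNA-enriched fraction with an Illumina small RNA protocol, per the labels' protocols. The authors deposited whole-number read counts per mature miRNA in a pair of tables, whose names point to sRNAbench (used here) and Chimira (an alternative). edgeR is named in the submitters' processing notes. The aligner, versions, miRBase release and build of the counts are not stated in the sources used here. Columns named WT were taken as the α1ACT line and control as the vector line, an assumption from the construct's normal repeat length. Each table has 12 further columns per sample that were not used, and 1 unnamed entry with 0 counts was left out.

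Counts were fitted with edgeR 4.0.16 in R 4.3.3 (filterByExpr, TMM, robust quasi-likelihood, 1 mean per group over all 23 libraries), with Benjamini-Hochberg adjustment over all 269 tested miRNAs at 0.05. Arm ratios used counts plus 0.5. No replicate pair agreed within sampling noise. Without molecular identifiers, reads may include PCR copies. Steps were tested on simulated data. Members and lists were chosen with earlier results of these data known.

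Named miRNAs were, among those with a mean of at least 10 CPM, up to 12 called in each direction by size, the 3 most abundant called, the 10 most abundant, up to 4 per list by p, the other arms, and the 5 smallest interaction p. Where fewer were called in a direction, the smallest p filled up to 8. Outside this rule, let-7e-3p, seed relatives and miRNAs whose call depends on 6 h replicate 2 were named after their values were seen. Alternatives were the Chimira table, other scalings and filters, DESeq2 1.42.0, limma-voom 3.58.1, fits of fewer groups, a replicate block and leaving out each library.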

Additional observations from a re-analysis of the deposited data

How the results depend on the processing

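No named miRNA called in the α1ACT line changed direction under any of the 21 alternatives, and miR-99b-5p, miR-100-5p, miR-149-5p, miR-25-5p, miR-342-3p and miR-423-5p were called in all of them. Of the 28 calls, 17 were shared with the 19 of the Chimira table, where all 28 had the same sign. The count was 26 with RLE factors, 23 with upper-quartile factors, 26 with library totals, 24 with no filter, 25 with a minimum of 10 CPM, 32 with DESeq2, 29 with limma-voom, 21 with the 6 libraries alone and 32 with the 12 α1ACT libraries alone. Of changes chosen after seeing the data, exchanging the vector pair gave 16, leaving it out 29, and adding up let-7c-2-3p with let-7a-1-3p, whose reads sit in 1 entry or the other by library, 28.

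Without 1 library the count ran between 18 and 43, that of higher miRNAs between 1 and 13 and that of lower ones between 14 and 30. The 7 higher became 3 (Chimira table), 2 (upper quartile), 4 (no filter), 4 (minimum of 10 CPM), 11 (12 libraries alone) and 2 (exchanged vector pair). The 3 calls in the vector line became 0 with the Chimira table and with the vector pair exchanged or left out, and between 0 and 4 without 1 library. The interaction gave 2 with DESeq2 and between 0 and 3 without 1 library. Leaving out 1 library moved the count of calls in either direction, and exchanging the vector pair moved it with none left out. The cause of these shifts was not tested.

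Deviations of same-numbered libraries correlated at 0.19, 0.12 and 0.055. Without the 2 let-7 entries that exchange counts, the values were 0.35, 0.32 and 0.084. Each library correlated best with its own number, and whether equal numbers mark pairs is uncertain. The main fit did not take them as pairs. A replicate block gave 35 calls over all libraries (12 higher) and 45 in the 6 libraries alone (15 higher), and 5 in the vector line. With counts as low as 10 in a library, falls such as that of miR-23b-5p are known only within wide errors.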

Other observations

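Entries outside the calls held a few further values. miR-137-5p had the lowest log2 fold change of all tested entries, -3.09, with 0, 3 and 0 counts at 24 h and 9, 5 and 9 counts at 6 h, and it was not called. let-7a-1-3p had 207, 0 and 152 counts at 24 h and 130, 124 and 105 counts at 6 h, while let-7c-2-3p had 193 counts in 24 h replicate 2 and 0 in the other 5 libraries. These 2 entries exchange their counts in 1 library, so their separate values are uncertain. The Chimira table held 13 tested entries that the other table lacked, of which 0 were called and 2 had an unadjusted p under 0.05 by edgeR.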
